A study of Mus musculus with 8 samples.

Results

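The genes described here are the 39 genes of the mouse Hox clusters, taken as every row of the deposited count table whose symbol is Hox with a cluster letter from a to d and a paralog number, out of 26930 genes in the table. All 39 were found in the GENCODE vM1 annotation of mm9. The 11 Hoxa genes lie on the minus strand of chromosome 6 from 52105366 to 52210874, and the 10 Hoxb genes on the plus strand of chromosome 11 from 96055630 to 96229570. The 9 Hoxc genes lie on the plus strand of chromosome 15 from 102751534 to 102867274 and the 9 Hoxd genes on the plus strand of chromosome 2 from 74506367 to 74603200.

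Expression was measured by RNA-seq of ribosomal RNA-depleted total RNA from intermediates on day 8 of the reprogramming of mouse embryonic fibroblasts by Oct4, Klf4, Sox2 and Myc (OKSM), in a medium called AGi. Cells were WT (also described as H3 in the labels) or K36M, a histone H3 mutant with methionine in place of lysine 36, a site of methylation. They received either 250 nM Repsox, which blocks the type I receptor for TGF-beta, or 2.5 ng/ml of the ligand TGF-beta1. This gives 4 groups of 2 libraries: WT with Repsox, WT with TGF-beta1, K36M with Repsox and K36M with TGF-beta1. All 4 groups share the reprogramming factors, the medium and the day, and no untreated group was used here, so a difference between media cannot be assigned to Repsox or to TGF-beta1 alone. What drives the factors and the histone is not given in the sources used here, nor is the origin of replicate libraries from distinct cultures or animals. The p-values may therefore cover no more than technical spread.

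Hox genes encode homeodomain transcription factors that give cells their position along the head-to-tail axis and, in the limbs, along the axis from body to digits. In each cluster the genes stand in the order in which they act: those with low paralog numbers act early and toward the head, those with high numbers late and toward the tail. Fibroblasts keep in culture much of the Hox pattern of the site they came from, while in pluripotent cells the clusters are held nearly silent by the Polycomb complexes, among them the one that methylates lysine 27 of histone H3. Below, paralog groups 1 to 3 are called anterior, 4 to 8 central and 9 to 13 posterior.

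The promoters of 4 genes are shown because these genes stand for the patterns described below: Hoxa5 and Hoxb4 for the genes that moved together, Hoxb8 and Hoxb1 for 2 that did not. Each window is the RefSeq sequence (GRCm38.p6) from 250 bases before to 50 bases after an annotated start, read on the strand of the gene. Hoxa5 is at chr6:52204538-52204837 on the minus strand, and on the plus strand are Hoxb4 at chr11:96318017-96318316, Hoxb8 at chr11:96281655-96281954 and Hoxb1 at chr11:96365508-96365807. Capitals mark every match, on either strand, to TGATNNAT, which HOX proteins bind together with their cofactor PBX, and to TGATTG, a site of PBX alone.
Hoxa5: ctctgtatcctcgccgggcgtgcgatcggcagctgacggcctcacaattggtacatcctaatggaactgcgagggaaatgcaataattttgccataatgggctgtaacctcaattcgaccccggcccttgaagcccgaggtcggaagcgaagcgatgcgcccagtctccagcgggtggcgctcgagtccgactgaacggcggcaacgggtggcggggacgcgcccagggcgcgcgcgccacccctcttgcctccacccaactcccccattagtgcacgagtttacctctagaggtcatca
Hoxb4: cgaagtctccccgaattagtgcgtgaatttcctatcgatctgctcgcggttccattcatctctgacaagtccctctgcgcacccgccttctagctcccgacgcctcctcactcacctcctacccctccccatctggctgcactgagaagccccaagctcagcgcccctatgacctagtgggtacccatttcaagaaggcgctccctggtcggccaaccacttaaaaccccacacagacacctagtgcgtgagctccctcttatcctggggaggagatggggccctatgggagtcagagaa
Hoxb8: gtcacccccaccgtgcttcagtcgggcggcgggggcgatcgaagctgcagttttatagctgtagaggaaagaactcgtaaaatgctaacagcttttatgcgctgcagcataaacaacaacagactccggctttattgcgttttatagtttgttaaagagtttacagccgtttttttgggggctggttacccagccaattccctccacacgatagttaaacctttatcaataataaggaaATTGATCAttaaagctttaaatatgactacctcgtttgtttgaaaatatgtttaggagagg
Hoxb1: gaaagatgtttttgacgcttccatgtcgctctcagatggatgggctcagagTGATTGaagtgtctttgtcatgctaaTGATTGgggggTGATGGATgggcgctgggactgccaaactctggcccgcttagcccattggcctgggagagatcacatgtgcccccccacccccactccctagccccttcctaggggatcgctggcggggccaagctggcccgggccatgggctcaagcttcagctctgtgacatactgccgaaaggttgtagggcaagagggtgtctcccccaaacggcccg
Hoxb1 held TGATGGAT, with its first base 162 bases before the start, and TGATTG at 199 and 173 bases before it. Hoxb8 held 1 match to TGATNNAT on the minus strand, printed above as ATTGATCA, with its first printed base 11 bases before the start. The windows of Hoxa5 and Hoxb4 held neither motif. RefSeq windows were matched for 22 of the 39 genes (24 windows), and 17 genes had none. TGATNNAT was in 4 of the 24 Hox windows (16.7%) and in 8.85% of all 32841 windows, and TGATTG in 4 (16.7%) against 14.0%. The homeodomain core TAATTA was in 2 (8.33%) against 5.29%, the SMAD motif CAGACA in 4 (16.7%) against 21.0%, and the octamer ATGCAAAT in 0 against 1.74%. Hox windows were rich in CpG, with a median of 14.5 CpG and 57.6% GC, against 7 CpG and 52.7% over all windows. These matches describe the letters of the windows only.

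Library totals ran from 10928302 to 15594217 counts, and Hox genes took little of them. They held 445 to 570 counts (0.0037 to 0.00382%) in K36M with Repsox, 1391 to 1462 in K36M with TGF-beta1, 2118 to 2400 in WT with Repsox and 6548 to 8356 (0.0513 to 0.0536%) in WT with TGF-beta1. At this depth 33 of the 39 genes passed the filter on low counts and were tested, and the others held 3 to 30 counts over the 8 libraries. Exons of 18 of the 39 genes share bases with another annotated gene, at least 50% of them in Hoxa3 (53.5%) and Hoxd4 (67.4%). The strand setting of the counting is not given in the sources used here, so the counts of such genes are uncertain, and the share is given below for some of them. It was 26.2% in Hoxb7, 20.4% in Hoxa7, 15.4% in Hoxc5, 11.0% in Hoxa2, 8.7% in Hoxc10 and 8.39% in Hoxd11. In Hoxa9, Hoxd10, Hoxb5 and Hoxb4 it was 5.67, 3.92, 3.56 and 2.65%.

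Summed over each cluster, Hox RNA was lower in K36M than in WT in both media and higher with TGF-beta1 than with Repsox in both genotypes. In Hoxd the differences between genotypes with TGF-beta1 and between media in WT were small, as given below. Levels that are compared between genes or summed over them are counts scaled to a common library size with TMM factors (CPM) per kilobase of exon. The 2 values of a group are those of replicates 1 and 2. The 39 genes together stood at 62.4 and 62.1 CPM per kb in WT with Repsox, 215 and 226 in WT with TGF-beta1, 14.6 and 13.9 in K36M with Repsox and 45.2 and 48.0 in K36M with TGF-beta1. No library of one group fell within the range of another, and K36M with TGF-beta1 stayed below WT with Repsox. The sum was 4.36-fold lower in K36M than in WT with Repsox and 4.73-fold lower with TGF-beta1, and 3.54-fold higher with TGF-beta1 than with Repsox in WT and 3.27-fold higher in K36M. In bulk RNA, fewer cells that express a gene and less RNA per cell cannot be told apart.

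The clusters differed in how far they moved. Hoxc, which gave the most Hox RNA in every group, stood at 29.6 and 30.6 CPM per kb in WT with Repsox, 116 and 115 in WT with TGF-beta1, 4.99 and 5.41 in K36M with Repsox and 21.9 and 22.8 in K36M with TGF-beta1. Hoxa stood at 12.4 and 10.8, 66.4 and 74.7, 3.69 and 3.06 and 12.6 and 13.5 in the same order. In WT, Hoxa showed the largest ratio between media of the 4 clusters, 6.09-fold, and its share of all Hox RNA was 18.6% ± 1.7 (SD, n = 2) with Repsox and 32.0% ± 1.41 with TGF-beta1. Hoxb stood at 15.6 and 16.5, 27.8 and 31.1, 3.83 and 3.53 and 6.75 and 6.85 CPM per kb, a ratio between media of 1.84-fold in WT and 1.85-fold in K36M. Hoxd was low throughout, at 4.81 and 4.19, 4.86 and 5.38, 2.12 and 1.90 and 4.03 and 4.83 CPM per kb. Its libraries in the 3 groups other than K36M with Repsox lay close together, and its sum was 2.24-fold lower in K36M than in WT with Repsox but 1.16-fold lower with TGF-beta1. Between media in WT it was 1.14-fold higher with TGF-beta1. The TMM factors were 1.03 and 1.06 in WT with Repsox and 0.911 and 0.894 in WT with TGF-beta1, so ratios of this size depend on the scaling. Cluster sums under other scalings were not computed.

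**Figure D1:**
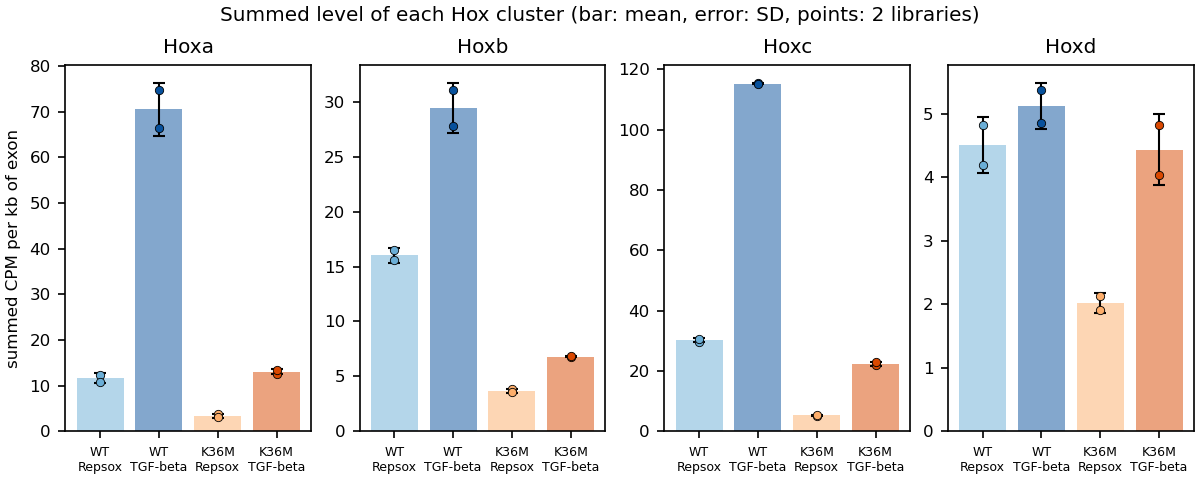
Summed level of each Hox cluster in CPM per kb of exon (vertical axis, a different scale in each panel) in the 4 groups; bars are means, error bars SD and points the 2 libraries. Hoxa, Hoxb and Hoxc were highest in WT with TGF-beta1 and lowest in K36M with Repsox, and Hoxd was lowest in K36M with Repsox, at 2.01 against 4.43 to 5.12 in the other groups.

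Markers of cell states also differed between the groups, and not all of them followed the order of the Hox sums. The summed level of 11 fibroblast and mesenchymal genes was 3650 to 4220 CPM in WT with Repsox, 13500 to 14800 in WT with TGF-beta1, 1870 to 1920 in K36M with Repsox and 2610 to 2740 in K36M with TGF-beta1, the same order of groups as for the Hox sum. Fn1, fibronectin, made up most of this sum in every group, at 2221 to 2567, 7802 to 8098, 1748 to 1813 and 2004 to 2150 CPM in the same order. The single markers did not all share that order: with TGF-beta1 against Repsox in WT, 5 of the 11 were higher and 5 lower, among the latter Pdgfra and Pdgfrb, receptors for platelet-derived growth factor, Twist1, Lum and Thy1. Over all genes, 29% were called higher and 33.4% lower in that comparison. Pdgfra was at 52.8 to 56.8 CPM in WT with Repsox and 2.84 to 3.59 in WT with TGF-beta1. In K36M against WT with Repsox all 11 of these genes fell (26.9% of all genes). Col1a1, a fibrillar collagen, was at 396 ± 79.0 CPM in WT and 33.4 ± 6.10 in K36M (mean ± SD, n = 2). The 10 pluripotency genes summed to 899 to 1070 CPM in WT with Repsox, 22.3 to 31.8 in WT with TGF-beta1, 1260 to 1300 in K36M with Repsox and 811 to 817 in K36M with TGF-beta1, and the 7 epithelial genes to 2040 to 2160, 109 to 142, 4800 to 4990 and 3580 to 3730. No pluripotency or epithelial marker was at 0 in any group, and of the fibroblast markers only Lum was, in WT with TGF-beta1. Thy1, a surface protein of fibroblasts, was at 551 ± 1.89, 28.5 ± 3.89, 14.3 ± 0.590 and 37.3 ± 0.849 CPM in the same order. The part of these cell states in the Hox differences was not tested.

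Central genes led the Hox RNA of WT cells. Hoxc8, a central gene that acts in the trunk (ENSMUSG00000001657, chromosome 15, 102821053 to 102824698 on mm9), had the highest level per kb of exon of the 39 genes in WT with Repsox, at 9.79 and 12.3 CPM per kb, and in WT with TGF-beta1, at 55.8 and 55.3. In WT with Repsox it was followed by Hoxc6, Hoxb9 and Hoxc10 at means of 7.5, 6.73 and 3.94 CPM per kb, and none of these neighbours in the order overlapped between their libraries. Per kb of the longest transcript, Hoxc6 stood at 11.8 and 10.6 in WT with Repsox and overlapped with Hoxc8, so that the first place there depends on the length used. In K36M with TGF-beta1 the first place went to Hoxc6, at 5.68 and 5.87 CPM per kb. Central genes made up 61.2% of all Hox RNA in WT with Repsox, 74.2% in WT with TGF-beta1, 38.9% in K36M with Repsox and 51.2% in K36M with TGF-beta1. The anterior share was 7.15 and 8.91% in the WT groups and 21.0 and 17.9% in the K36M groups, and the posterior share 31.7, 17, 40.1 and 30.8% in the same order. A mean of at least 1 CPM was reached by 30 of the 39 genes in each WT group, by 11 in K36M with Repsox and by 24 in K36M with TGF-beta1, and at least 10 CPM by 3, 15, 0 and 3.

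**Figure D2:**
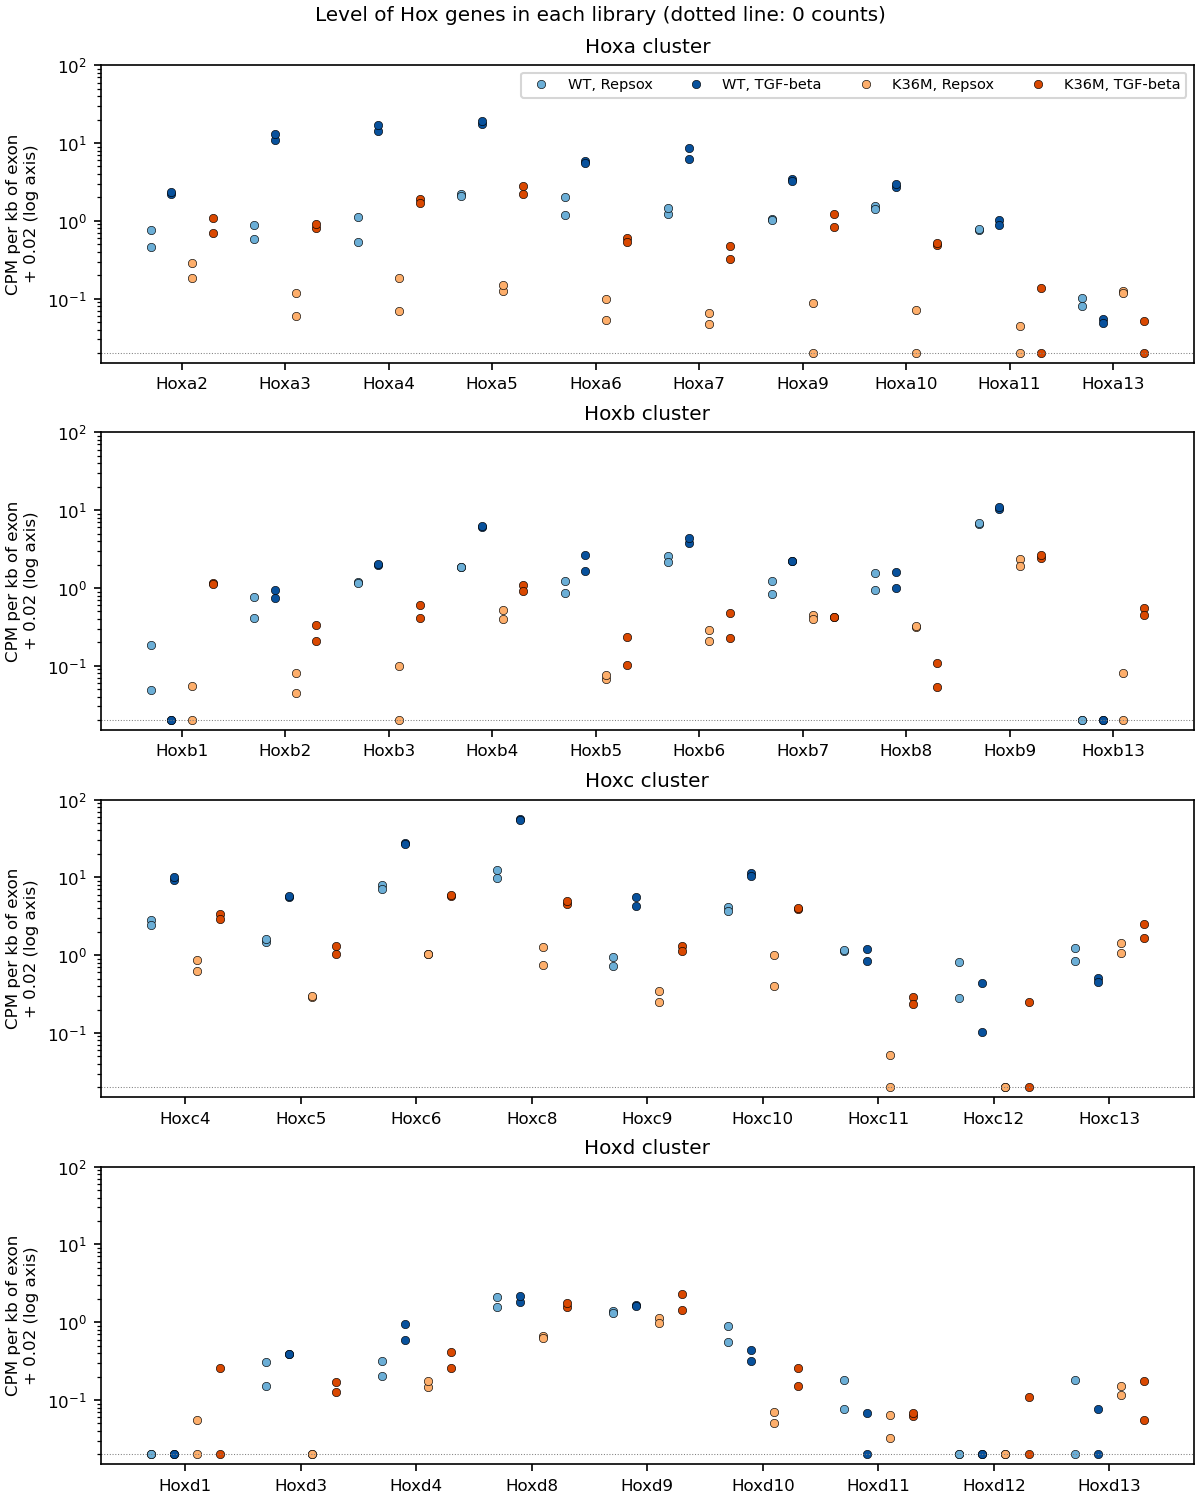
Level of the Hox genes in each of the 8 libraries (1 of the 39 is not shown), in CPM per kb of exon plus 0.02 on a log axis, ordered by paralog number within each cluster; the dotted line marks 0 counts. WT with TGF-beta1 was above every other library for 23 of the 33 tested genes (26.8% of all genes tested) and K36M with Repsox below every other library for 25 (16.6%), while Hoxb1, Hoxb13 and Hoxc13 were among 4 genes (14.6% of all genes) highest in K36M with TGF-beta1. Hoxb1 and Hoxb13 passed the filter on low counts through that group.

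K36M was compared with WT with Repsox. Most tested Hox genes were lower in K36M: 27 of 33 fell, 1 rose and 5 did not pass the test (edgeR quasi-likelihood test, adjusted p below 0.05), where over all 15789 genes tested 26.9% were called lower and 28.8% higher. Both K36M libraries were below both WT libraries for 29 of the 33 genes (35.9% of all genes) and above them for 1 (39.5%). The median log2 fold change of the 33 genes was -2.80, against 0.035 over all genes. By cluster 9 of 10 Hoxa, 8 of 10 Hoxb, 7 of 8 Hoxc and 3 of 5 Hoxd genes fell, with medians of -4.46, -2.19, -2.53 and -1.52, and by position 5 of 7 anterior, 14 of 15 central and 8 of 11 posterior genes. Fitted values of genes with 0 counts in a group depend on the prior count, and with those set to their bound these medians were the same.

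Hoxc8 stood at 22.5 and 28.3 CPM in WT and 1.65 and 2.90 in K36M with Repsox, 11.4-fold lower (log2 -3.51 ± 0.19, adjusted p = 5.22e-13). Hoxa5, which patterns the lung and the neck-to-thorax vertebrae, stood at 4.11 and 3.85 CPM in WT and 0.198 and 0.241 in K36M, 17.6-fold lower (log2 -4.14 ± 0.40, adjusted p = 1.14e-08). Hoxb9, a posterior gene that acts in the thorax, stood at 17.1 and 17.6 CPM and 6.06 and 4.83, 3.16-fold lower (log2 -1.66 ± 0.17, adjusted p = 2.41e-08). The libraries of the 2 genotypes did not overlap for any of these genes, and the K36M level was near 0 for Hoxa5 but not for Hoxb9. Posterior Hoxa genes, which act in the limbs and the hind part of the trunk, were almost absent from K36M: Hoxa10 held 88 and 71 counts in WT and 3 and 0 in K36M, a ratio of 52.1-fold (exact 95% interval 17.5 to 256). Hoxa9 held 54 and 46 and 0 and 3, a ratio of 32.8-fold (exact 95% interval 10.9 to 162). Hoxa11 and Hoxc11 each held 1 count over both K36M libraries, where Hoxa11 held 30 and 27 and Hoxc11 33 and 31 in WT. Hoxd3, an anterior gene, held 25 and 10 counts in WT and 0 in both K36M libraries, at least 11.5-fold lower, although 35.8% of its exon bases are shared with other genes, mostly with Hoxd4. Hoxa11 shares 38.6% of its exon bases with the antisense gene Hoxa11as, which also fell.

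Hoxa2, which patterns the hindbrain and the middle ear, fell in K36M with Repsox, at 1.08 and 1.81 CPM in WT and 0.395 and 0.643 in K36M (log2 -1.48 ± 0.51, adjusted p = 0.0184). Its K36M libraries were below both WT libraries. The genes that did not pass were Hoxb1, Hoxb13, Hoxc13, Hoxd4 and Hoxd9. Of the called genes, Hoxa2 was not called without WT Repsox replicate 2 (adjusted p = 0.168) or without K36M Repsox replicate 1 (0.154). Leaving out a single library moved the fitted fold of 11 called genes by more than 1.5 times, in 10 of them on leaving out either K36M Repsox library, as for Hoxa10 (log2 -9.19 without replicate 1, -4.77 without replicate 2), and for Hoxa4 and Hoxd3 on leaving out WT Repsox replicate 1 (-2.14 and -6.31).

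K36M was compared with WT in the presence of TGF-beta1, with libraries not used in the comparison above. Again most Hox genes were lower in K36M: 26 of 33 fell, 4 rose and 3 did not pass, where over all genes 33.9% were called lower and 36.4% higher. Both K36M libraries were below both WT libraries for 28 genes (41.1% of all genes) and above them for 4 (44.1%). The median was -2.04 (0.051 over all genes), and by cluster -3.00 in Hoxa, -2.28 in Hoxb (-2.27 with genes at 0 counts set to their bound), -2.02 in Hoxc and -0.93 in Hoxd. All 10 Hoxb genes were called, 8 lower and 2 higher, while only 2 of the 5 Hoxd genes fell. The 2 higher ones, Hoxb1 and Hoxb13, passed the filter on low counts through the K36M libraries with TGF-beta1. Their calls, counted among the 4 that rose, are therefore not independent of that filter. By position, 5 of 7 anterior, 14 of 15 central and 7 of 11 posterior genes fell.

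Hoxc8 stood at 128 and 127 CPM in WT and 10.3 and 11.4 in K36M with TGF-beta1, 11.8-fold lower (log2 -3.56 ± 0.14, adjusted p = 3.63e-16). Hoxa7, a central gene that acts in the thorax, stood at 17.7 and 24.8 CPM in WT and 1.33 and 0.874 in K36M, 19.0-fold lower (log2 -4.25 ± 0.29, adjusted p = 1.13e-11). Hoxa3, which patterns the neck and its glands, stood at 71.9 and 84.7 CPM and 5.24 and 5.94, 14.0-fold lower (log2 -3.81 ± 0.17, adjusted p = 6.42e-15), with 53.5% of its exon bases shared with other genes. None of these groups overlapped. In Hoxb, the central gene Hoxb5 stood at 4.65 and 7.32 CPM in WT and 0.234 and 0.612 in K36M (log2 -3.83 ± 0.48, adjusted p = 2.48e-07). Hoxb8 stood at 2.58 and 4.16 and 0.234 and 0.0874 (log2 -4.29 ± 0.62, adjusted p = 2.21e-06), with 40.4% of its exon bases shared with Hoxb7. Among posterior genes the differences were smaller in Hoxa9, at 12.1 and 11.2 CPM in WT and 2.81 and 4.19 in K36M (log2 -1.74 ± 0.28, adjusted p = 8.70e-06), and in Hoxc10, at 21.4 and 19.8 and 7.50 and 7.69 (log2 -1.44 ± 0.21, adjusted p = 2.00e-06). Neither overlapped between genotypes. The calls of Hoxb2, Hoxd3 and Hoxd4 were lost on leaving out single libraries. Hoxb2 was lost without K36M TGF-beta1 replicate 1 (log2 -1.37, against -1.71 with all libraries). Hoxd3 was lost on leaving out any of the 4 libraries compared (log2 -1.80 to -1.31, against -1.53). Hoxd4 was lost under 11 of its alternatives (up to 0.354, without WT TGF-beta1 replicate 2). The fitted fold of Hoxa11, Hoxb5, Hoxb6 and Hoxb8 moved by more than 1.5 times without 1 of the K36M TGF-beta1 libraries: to log2 -8.04, -4.26 and -5.14 for Hoxa11, Hoxb6 and Hoxb8 without replicate 1, and to -2.94 and -4.63 for Hoxa11 and Hoxb5 without replicate 2.

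Of the 4 genes that rose in K36M with TGF-beta1, Hoxb1, Hoxb13 and Hoxc13 are described here, and each lies at an end of its cluster. Hoxb1, the 3′ end gene of its cluster, which acts in the hindbrain (chromosome 11, 96227066 to 96229570 on mm9), held 0 and 0 counts in WT and 34 and 29 in K36M, at least 22.1-fold higher (adjusted p = 5.58e-06). Hoxb13, the 5′ end gene, which acts in the tail region and the prostate, held 0 and 0 counts in WT and 15 and 11 in K36M, at least 9.13-fold higher (adjusted p = 4.25e-04). In the other three groups neither gene held more than 5 counts in a library, so that they passed the filter on low counts through the K36M libraries with TGF-beta1. Hoxc13, the 5′ end gene of its cluster, which acts in hair and nails, stood at 1.21 and 1.08 CPM in WT and 3.99 and 6.12 in K36M, 4.39-fold higher (log2 2.14 ± 0.38, adjusted p = 3.21e-05). Not every gene at an end did so: Hoxc4, at the 3′ end of Hoxc, fell, at 23.3 and 26.1 CPM in WT and 8.52 and 7.34 in K36M (log2 -1.64 ± 0.18, adjusted p = 4.13e-08). Hoxa13, Hoxd1 and Hoxd13 were too low to be tested. The nearest tested neighbours of these 3 genes, Hoxb2, Hoxb9 and Hoxc11, all fell. Without K36M TGF-beta1 replicate 1, Hoxb13 did not pass the filter and was not tested.

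**Figure D3:**
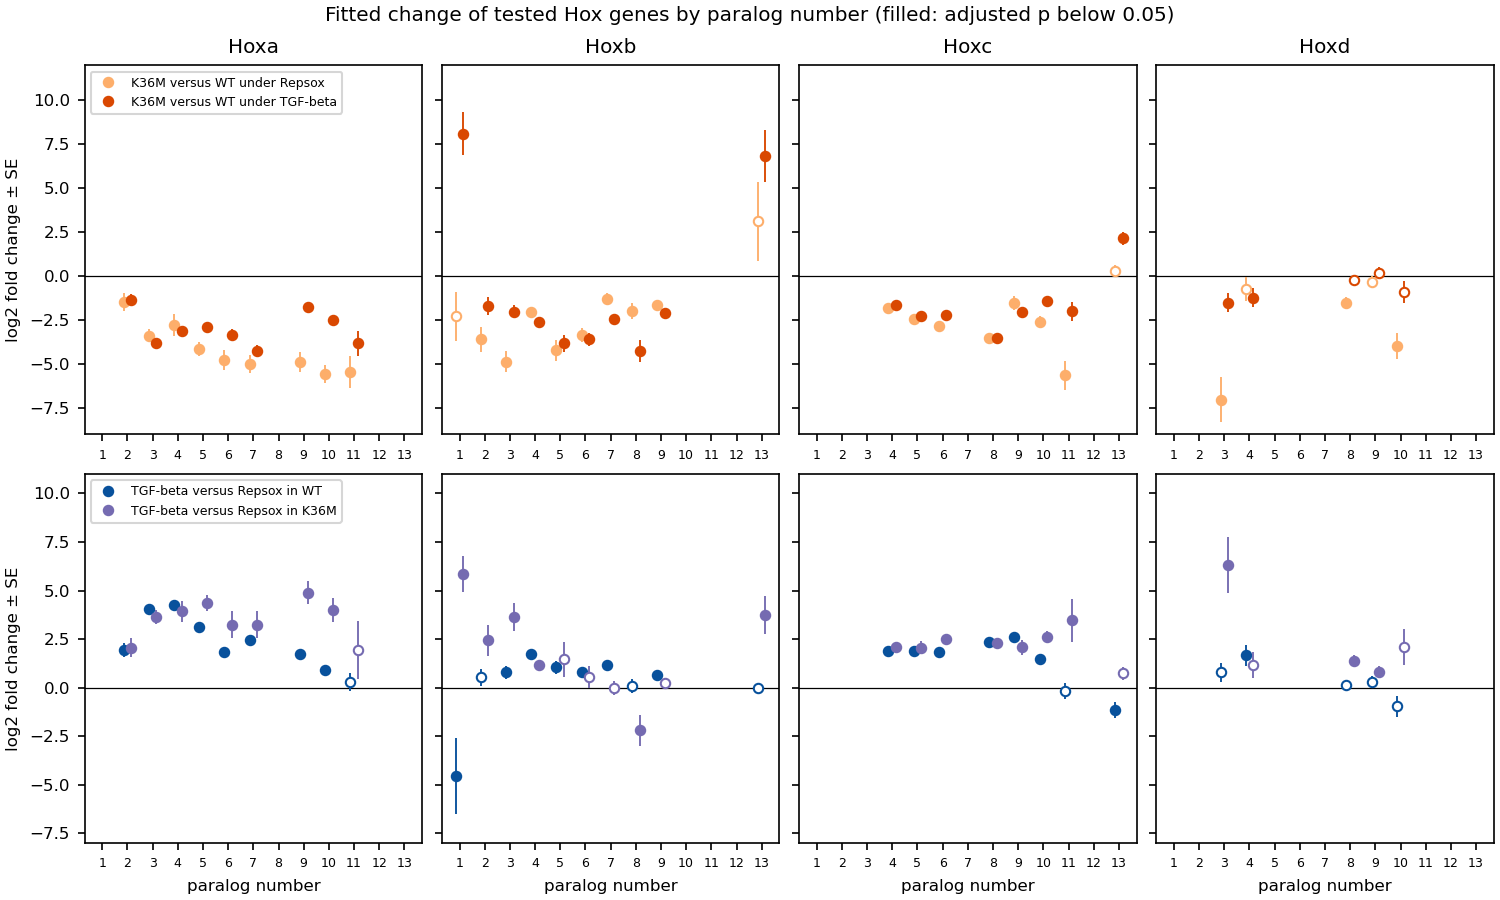
Fitted log2 fold change ± SE (vertical axis) of the tested genes against paralog number (1 of the 33 is not shown), one column of panels for each cluster; the upper row gives K36M against WT in each medium and the lower row TGF-beta1 against Repsox in each genotype, with filled points for adjusted p below 0.05. In the upper row the Hoxa values fall with paralog number with Repsox (rank correlation -0.96 over all 10 tested), and Hoxb1, Hoxb13 and Hoxc13 lie above 0 with TGF-beta1.

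TGF-beta1 was compared with Repsox in WT cells. In this comparison 22 of 33 Hox genes were higher with TGF-beta1, 2 were lower and 9 did not pass, where over all genes 29% were called higher and 33.4% lower. Under total-count scaling the share of higher calls among all calls moved from 46.5 to 33.8%. Both TGF-beta1 libraries were above both Repsox libraries for 25 Hox genes (37% of all genes) and below them for 3 (42.4%). The median was 1.05 (-0.068 over all genes). Hoxa and Hoxc led, with 9 of 10 and 6 of 8 genes higher and medians of 1.88 and 1.86, before Hoxb with 6 of 10 and 0.72 and Hoxd with 1 of 5 and 0.27. Central genes were called most often, 13 of 15, against 4 of 7 anterior and 5 of 11 posterior genes, and no lower call fell among central genes.

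The largest differences were those of Hoxa3, Hoxa4 and Hoxa5. Hoxa4, which acts from the neck down, stood at 1.75 and 0.831 CPM with Repsox and 23.0 and 27 with TGF-beta1, 18.9-fold higher (log2 4.24 ± 0.27, adjusted p = 5.04e-12). Hoxa3 stood at 5.60 and 3.70 and 71.9 and 84.7 CPM, 16.7-fold higher (log2 4.06 ± 0.17, adjusted p = 3.17e-15). Hoxa5 stood at 4.11 and 3.85 and 32.9 and 35.6, 8.58-fold higher (log2 3.10 ± 0.18, adjusted p = 1.38e-12). For these 3 genes each TGF-beta1 library was far above both Repsox libraries, and no exon bases of Hoxa4 and Hoxa5 are shared with another gene. Hoxc8 stood at 22.5 and 28.3 CPM with Repsox and 128 and 127 with TGF-beta1, 5.04-fold higher (log2 2.33 ± 0.12, adjusted p = 1.05e-13). Hoxc9, its posterior neighbour, stood at 2.22 and 1.74 and 10.4 and 13.6 (log2 2.59 ± 0.27, adjusted p = 2.48e-08). Hoxb9 differed less, at 17.1 and 17.6 CPM with Repsox and 26.9 and 28.4 with TGF-beta1, 1.60-fold higher (log2 0.67 ± 0.14, adjusted p = 3.13e-04), yet its libraries did not overlap either. At the posterior ends the direction was not shared: Hoxc13 fell, from 2.97 and 2.04 CPM to 1.21 and 1.08 (log2 -1.14 ± 0.40, adjusted p = 0.0182). Hoxd10, which acts in the spinal cord and hindlimb, was at 1.42 and 2.34 and 1.12 and 0.790 CPM (log2 -0.98 ± 0.52, adjusted p = 0.106), short of the threshold. Hoxb1, with 1 and 5 counts with Repsox and 0 and 0 with TGF-beta1, was called lower at adjusted p = 0.0478, at least 1.82-fold lower, and lost that call under 10 alternatives.

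Leaving out single WT libraries removed several of the smaller calls. Hoxb3 was not called on leaving out any 1 of the 4 WT libraries (adjusted p 0.105 to 0.134). Hoxb5 and Hoxb6 were lost without WT Repsox replicate 2 (0.0957 and 0.0604) and without WT TGF-beta1 replicate 2 (0.232 and 0.0999). Hoxc13 and Hoxd4 were lost without WT Repsox replicate 1 (0.157 and 0.115) and without WT TGF-beta1 replicate 2 (0.0854 and 0.18), and Hoxb1 without WT Repsox replicate 2 (0.315), without either WT TGF-beta1 library (0.136 and 0.167) and on leaving out any 1 K36M library (0.0519 to 0.0704). Without WT Repsox replicate 1 the fitted log2 value of Hoxa4 moved to 4.89.

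TGF-beta1 was compared with Repsox in K36M cells, with libraries not used for WT. Here 24 of 33 Hox genes were higher with TGF-beta1, 1 was lower and 8 did not pass, where over all genes 24.7% were called higher and 23.6% lower. Both TGF-beta1 libraries were above both Repsox libraries for 29 Hox genes (37.8% of all genes) and below them for 1 (37.2%). The median was 2.09 (0.009 over all genes), with 9 of 10 Hoxa, 5 of 10 Hoxb, 7 of 8 Hoxc and 3 of 5 Hoxd genes higher and medians of 3.45, 1.32, 2.18 and 1.38. All 7 tested anterior genes were higher, with 10 of 15 central and 7 of 11 posterior genes. Hoxb1 and Hoxb13, counted among these genes and among the 24, passed the filter on low counts through the K36M libraries with TGF-beta1. Their calls here are therefore not independent of that filter. Each of the 2 medium comparisons shares its libraries with the genotype comparisons, so the counts of these comparisons are not independent of each other.

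Hoxa5 stood at 0.198 and 0.241 CPM with Repsox and 4.06 and 5.24 with TGF-beta1, 20.5-fold higher (log2 4.36 ± 0.40, adjusted p = 5.34e-09), and its TGF-beta1 level in K36M was close to the 4.11 and 3.85 CPM of WT with Repsox. Hoxa9 held 0 and 3 counts with Repsox and 36 and 48 with TGF-beta1, a ratio of 31.9-fold (exact 95% interval 10.5 to 158). Hoxa10 held 3 and 0 and 23 and 22, a ratio of 17.1-fold (exact 95% interval 5.49 to 86.0). Hoxc6, a central gene of the thorax, stood at 2.57 and 2.57 CPM with Repsox and 14.2 and 14.7 with TGF-beta1, 5.60-fold higher (log2 2.49 ± 0.18, adjusted p = 8.40e-11). The libraries of the 2 media did not overlap for these genes. Hoxd3 held 0 counts in both Repsox libraries and 11 and 7 with TGF-beta1, at least 6.84-fold higher. Hoxb1 held 0 and 1 and 34 and 29 counts, a ratio of 71.8-fold (exact 95% interval 12.4 to 2880). In the middle of Hoxb several genes were not called: Hoxb7 was at 1.78 and 1.53 CPM with Repsox and 1.64 and 1.66 with TGF-beta1 (log2 -0.01 ± 0.36, adjusted p = 0.987). Hoxb6 was at 0.395 and 0.563 and 0.938 and 0.437 (log2 0.56 ± 0.57, adjusted p = 0.446), with libraries that overlapped. Hoxb8 was the 1 gene called lower, at 0.790 and 0.804 CPM with Repsox and 0.234 and 0.0874 with TGF-beta1 (log2 -2.21 ± 0.78, adjusted p = 0.0231); 40.4% of its exon bases are shared with Hoxb7.

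Some of these calls were lost when 1 library was left out. Without K36M Repsox replicate 2, Hoxb2, Hoxb8, Hoxb13, Hoxc11 and Hoxd9 were not called (adjusted p 0.0961, 0.0554, 0.0717, 0.0884 and 0.18). Without K36M Repsox replicate 1, Hoxb8 and Hoxd9 were lost (0.064 and 0.0961), without K36M TGF-beta1 replicate 2 Hoxb2, Hoxb8 and Hoxd9 (0.111, 0.144 and 0.428), and without K36M TGF-beta1 replicate 1 Hoxc11 (0.0619), while Hoxc13 was called without the latter (0.0376). The fitted fold of 12 called genes moved by more than 1.5 times without 1 K36M library, for 11 of them a Repsox library and for Hoxb8 TGF-beta1 replicate 1, as for Hoxa10 (log2 7.59 without Repsox replicate 1, 3.17 without replicate 2) and Hoxc10 (3.37 without Repsox replicate 2).

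The interaction tests whether the difference between media was of the same size in the 2 genotypes, and is positive where TGF-beta1 against Repsox gave a higher ratio in K36M. Of the 33 genes, 11 had a positive and 2 a negative interaction and 20 did not pass, where over all genes 28.5% were called positive and 22.6% negative. Under total-count scaling the share of positive calls among all calls moved from 55.8 to 69.8%. Over all genes 51% were called in either direction, a larger share than the 13 of 33 Hox genes. The median was 0.64 (0.093 over all genes). Posterior genes were called positive in 6 of 11 cases, central genes in 2 of 15 and anterior genes in 3 of 7. Hoxb1, counted among the anterior genes, passed the filter on low counts through the K36M libraries with TGF-beta1. Without K36M Repsox replicate 1 the count of positive calls was 6: Hoxb3, Hoxc6, Hoxc10, Hoxd3 and Hoxd10 were not called (adjusted p 0.0949, 0.0764, 0.228, 0.055 and 0.0583). Hoxc8 was among the genes with no call: its ratio between media was 5.04-fold in WT and 4.87-fold in K36M (interaction log2 -0.05 ± 0.29, adjusted p = 0.910). A gene with no call need not have equal ratios, as for Hoxa6 (interaction log2 1.42 ± 0.82, adjusted p = 0.158).

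A group of 11 genes fell in K36M in both media, rose with TGF-beta1 in both genotypes and had no called interaction: Hoxa2 to Hoxa7, Hoxb4, Hoxc4, Hoxc5, Hoxc8 and Hoxc9, 8 of them central. The share of all genes with the same set of calls was not computed, so whether this pattern is particular to Hox genes is not known. Hoxb4, known for its part in blood stem cells, stood at 7.69 and 7.71 CPM in WT with Repsox, 24.9 and 26.1 in WT with TGF-beta1, 1.58 and 2.09 in K36M with Repsox and 4.45 and 3.76 in K36M with TGF-beta1 (interaction log2 -0.55 ± 0.33, adjusted p = 0.170). These 4 pairs did not overlap, and K36M with TGF-beta1 lay below WT with Repsox. A further 5 genes had the same calls with a positive interaction: Hoxa9, Hoxa10, Hoxb3, Hoxc6 and Hoxc10. Hoxc10, a posterior gene of the lumbar region, stood at 7.95 and 7.10, 21.4 and 19.8, 0.724 and 1.85 and 7.50 and 7.69 CPM in the same order. Its 2 medium ratios were 2.73-fold in WT and 6.09-fold in K36M (interaction log2 1.16 ± 0.37, adjusted p = 0.0130). Of these 16 genes, Hoxa2 lost its call with Repsox without either of 2 libraries and Hoxb3 that of the medium in WT, as given above. How K36M with TGF-beta1 stood against WT with Repsox was not the same for all: by their means Hoxa2 to Hoxa5, Hoxc4, Hoxc9 and Hoxc10 were higher in K36M with TGF-beta1, and Hoxa6, Hoxa7, Hoxa9, Hoxa10, Hoxb3, Hoxb4, Hoxc5, Hoxc6 and Hoxc8 were lower.

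**Figure D4:**
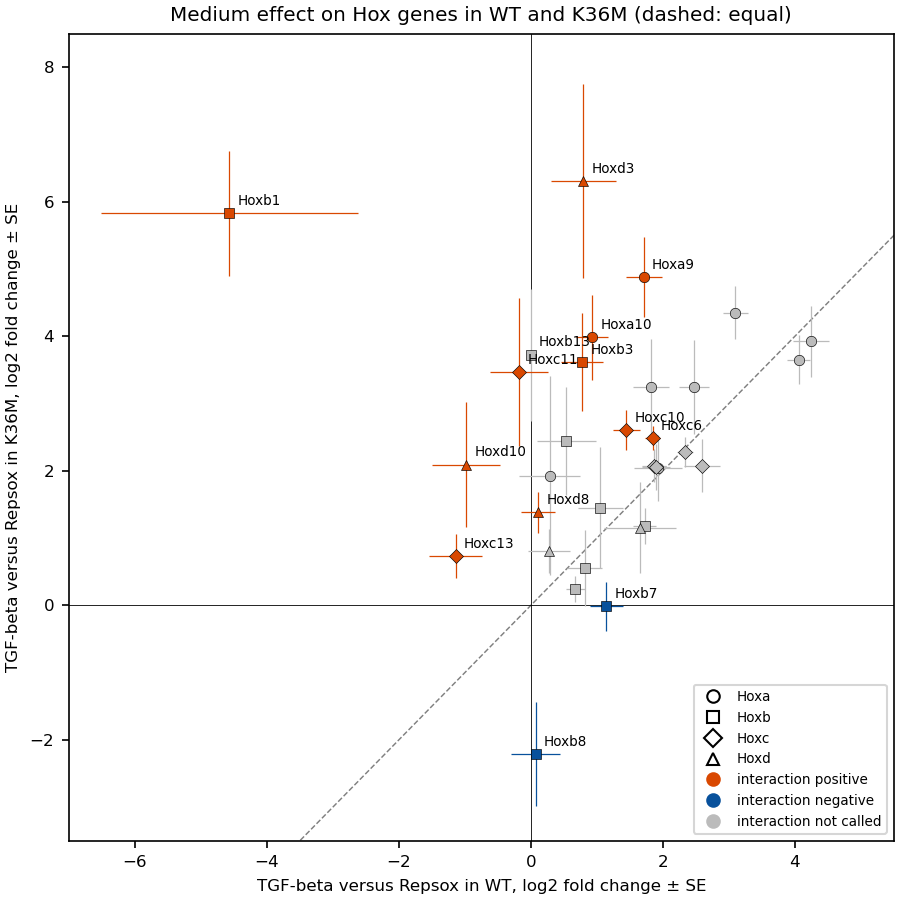
Fitted log2 fold change of TGF-beta1 against Repsox in WT (horizontal axis) and in K36M (vertical axis), each ± SE, for the tested genes (1 of the 33 is not shown), with the cluster as the shape of the point and the interaction call as its colour; on the dashed line both changes are equal. Most points lie above 0 on both axes, Hoxb1 and Hoxc13, called lower in WT, lie left of 0, with Hoxc11 and Hoxd10 (not called), and Hoxb8 lies below 0, with Hoxb7 at -0.01.

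Hoxb1 and Hoxc13, the 2 genes called lower with TGF-beta1 in WT, had fitted values of the opposite sign in K36M. Hoxc13 stood at 2.97 and 2.04 CPM in WT with Repsox, 1.21 and 1.08 in WT with TGF-beta1, 3.42 and 2.57 in K36M with Repsox and 3.99 and 6.12 in K36M with TGF-beta1. WT with TGF-beta1 was the lowest and K36M with TGF-beta1 the highest of the 4 groups, without overlap, while the 2 genotypes overlapped with Repsox (interaction log2 1.87 ± 0.52, adjusted p = 0.00439). Of its 2 medium differences, that in WT was called and that in K36M was not (log2 0.73 ± 0.32, adjusted p = 0.0671). Hoxb1 held 1 and 5, 0 and 0, 0 and 1 and 34 and 29 counts in the same order, so that only K36M with TGF-beta1 held more than 5 in a library (interaction adjusted p = 3.12e-04). Hoxb7 and Hoxb8 had the 2 negative interactions: Hoxb7 stood at 3.37 and 4.91, 9.12 and 9.12, 1.78 and 1.53 and 1.64 and 1.66 CPM (interaction log2 -1.16 ± 0.45, adjusted p = 0.0347) and Hoxb8 at 2.43 and 4.08, 2.58 and 4.16, 0.790 and 0.804 and 0.234 and 0.0874 (interaction log2 -2.28 ± 0.87, adjusted p = 0.0330). Hoxb7 rose with TGF-beta1 in WT and stood at like levels in the K36M groups. Both calls were lost on leaving out several single libraries (adjusted p up to 0.131 without K36M Repsox replicate 1 for Hoxb7, and up to 0.149 without K36M TGF-beta1 replicate 2 for Hoxb8). The genes share 1069 exon bases.

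Hoxb2, Hoxb5, Hoxb6, Hoxc5, Hoxc9 and Hoxc11 fell in K36M in both media, and differed in how they stood between media. Hoxb2, which acts in the hindbrain, stood at 1.28 and 2.49 CPM in WT with Repsox, 2.41 and 3.02 in WT with TGF-beta1, 0.198 and 0.0804 in K36M with Repsox and 0.625 and 1.05 in K36M with TGF-beta1. Its difference between media was called in K36M only (log2 2.45 ± 0.80, adjusted p = 0.0153), with an interaction that did not pass (adjusted p = 0.0942, or 0.048 without WT Repsox replicate 1). Hoxb5 stood at 3.44 and 2.34, 4.65 and 7.32, 0.132 and 0.161 and 0.234 and 0.612 CPM in the same order, and Hoxb6 at 5.26 and 4.46, 7.92 and 9.19, 0.395 and 0.563 and 0.938 and 0.437. Both trunk genes rose with TGF-beta1 in WT and neither was called between media in K36M, where the levels were near 0. Hoxc5, a central gene, stood at 4.25 and 4.61, 16.4 and 16.5, 0.790 and 0.804 and 2.97 and 3.76 CPM, and Hoxc9 at 2.22 and 1.74, 10.4 and 13.6, 0.790 and 0.563 and 3.13 and 2.71. WT with TGF-beta1 was the highest group for both. Hoxc11, a posterior gene, held 33 and 31, 28 and 23, 1 and 0 and 7 and 5 counts. Its difference between media was not called in WT (adjusted p = 0.741) and was a ratio of 13.7-fold (exact 95% interval 2.02 to 584) in K36M (interaction adjusted p = 0.0141, or 0.0791 without K36M Repsox replicate 2 and 0.0532 without K36M TGF-beta1 replicate 1). Hoxa11, of the same paralog group, held 30 and 27, 31 and 32, 1 and 0 and 4 and 0 counts and was not called between media in either genotype.

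Hoxd behaved least like the other clusters. Hoxd8, a central gene, stood at 5.73 and 4.23 CPM in WT with Repsox, 4.91 and 5.89 in WT with TGF-beta1, 1.78 and 1.69 in K36M with Repsox and 4.30 and 4.81 in K36M with TGF-beta1. It was low in K36M with Repsox alone, by 2.87-fold against WT (log2 -1.52 ± 0.30, adjusted p = 1.73e-04). Its medium difference was called in K36M and not in WT (interaction log2 1.27 ± 0.40, adjusted p = 0.0118, or 0.0609 without WT Repsox replicate 1). Hoxd9 stood at 3.03 and 2.80, 3.62 and 3.45, 2.44 and 2.09 and 3.05 and 4.98 CPM in the same order. Of its 4 comparisons only that between media in K36M was called (log2 0.81 ± 0.33, adjusted p = 0.0468), a call lost under 5 alternatives. Hoxd10 held 21 and 31, 13 and 11, 2 and 1 and 8 and 4 counts. It was lower in K36M than in WT with Repsox, by a ratio of 17.1-fold (exact 95% interval 5.52 to 85.4), and its difference with TGF-beta1 was not called (log2 -0.93 ± 0.64, adjusted p = 0.202). Hoxd4, with 67.4% of its exon bases shared with Hoxd3, held 7 and 10, 17 and 33, 5 and 5 and 13 and 7 counts. Whether Hoxd as a cluster differed from the others was not tested.

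Position along the cluster went with the genotype difference with Repsox in Hoxa and, in the opposite direction, in Hoxb. With Repsox, Spearman's rank correlation between paralog number and log2 fold change was -0.96 over the 10 tested Hoxa genes, with Hoxa2 at -1.48 and Hoxa10 at -5.59. It was 0.73 over the 10 Hoxb genes, 0.02 over the 8 Hoxc genes and 0.30 over the 5 Hoxd genes. With TGF-beta1 the values were -0.45, -0.30, 0.52 and 0.70, so that the order seen in Hoxa with Repsox was weaker there. For TGF-beta1 against Repsox the correlation was -0.50, -0.02, -0.60 and -0.80 in WT and 0.32, -0.50, 0.12 and -0.30 in K36M. For the interaction in Hoxa it was 0.82, the genes with high paralog numbers having the larger positive values. Over all 33 genes the correlations lay between -0.35 and 0.21. These are descriptions: the genes of a cluster share libraries and a locus, some share exon bases, the fitted values of the lowest genes depend on the prior count, and the sets of tested genes differ between clusters.

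The 6 untested genes are posterior ones with the exception of Hoxd1. Hoxa13 held 3 and 2 counts in WT with Repsox, 1 and 1 in WT with TGF-beta1, 4 and 3 in K36M with Repsox and 1 and 0 in K36M with TGF-beta1. Hoxc12 held 4 and 11, 1 and 6, 0 and 0 and 3 and 0 in the same order, at least 4.92-fold lower in K36M than in WT with Repsox. Hoxd11 held 13 and 4, 3 and 0, 1 and 3 and 3 and 3. Hoxd13, which shapes the digits, held 6 and 0, 0 and 2, 5 and 3 and 5 and 1. Over all libraries Hoxd1 held 6 counts and Hoxd12 held 3, all in K36M. Differences among most of these genes were not detectable at this depth: the counting interval of the ratio included 1 for Hoxa13 and Hoxd13 in the comparisons where it could be given, and for Hoxd11 it excluded 1 between media in WT (5.16-fold lower with TGF-beta1, exact 95% interval 1.49 to 27.5).

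TALE cofactors of the Hox genes were called higher and lower in equal numbers between genotypes. Polycomb and Trithorax genes were more often called higher than lower in K36M with TGF-beta1, and more often lower than higher with TGF-beta1 against Repsox. With Repsox the excess of higher calls in K36M was small, at 9 against 5 for Polycomb and 6 against 5 for Trithorax genes. HOX proteins bind DNA with TALE homeodomain partners of the PBX, MEIS and PREP families. Of 11 TALE genes, 4 were higher and 4 lower in K36M than in WT with Repsox, and 5 and 5 with TGF-beta1. With TGF-beta1 against Repsox 1 was higher and 4 lower in WT, and 5 and 2 in K36M. Meis3 had the order of groups of the Hox sum, at 8.71 ± 1.31 CPM in WT with Repsox, 17.5 ± 0.692 in WT with TGF-beta1, 1.76 ± 0.213 in K36M with Repsox and 5.01 ± 0.655 in K36M with TGF-beta1. It was lower in K36M in both media (log2 -2.30 ± 0.25, adjusted p = 5.81e-08 with Repsox). Of 26 Polycomb genes, which keep silent Hox genes off, 9 were higher and 5 lower in K36M with Repsox and 16 and 8 with TGF-beta1. With TGF-beta1 against Repsox 7 were higher and 16 lower in WT and 3 and 10 in K36M. Ezh2, the methyltransferase for lysine 27, was at 98.8 ± 5.44, 36.2 ± 3.23, 104 ± 3.61 and 90.0 ± 0.798 CPM, low only where the Hox sum was highest. Its difference between genotypes with Repsox was not called (log2 0.08 ± 0.08, adjusted p = 0.446). Of 15 Trithorax group and lysine 27 demethylase genes, which keep active Hox genes on, 6 were higher and 5 lower in K36M with Repsox, and 11 and 2 with TGF-beta1. With TGF-beta1 against Repsox 3 were higher and 11 lower in WT and 2 and 8 in K36M. Over all genes, 28.8% were called higher and 26.9% lower in K36M with Repsox, and 36.4 and 33.9% with TGF-beta1. With TGF-beta1 against Repsox these shares were 29 and 33.4% in WT and 24.7 and 23.6% in K36M.

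Genes that flank the clusters were called in both directions in each comparison, and the direction with more calls was not the same in all of them. Of 18 tested flanking genes, 6 were higher and 4 lower in K36M with Repsox, where over all genes 28.8% were higher and 26.9% lower, and 5 and 8 with TGF-beta1 (36.4 and 33.9% over all genes). With TGF-beta1 against Repsox 6 were higher and 5 lower in WT and 3 and 6 in K36M, with medians of 0.05, -0.19, 0.16 and -0.08. Calcoco2, near Hoxb, was lowest in the group where Hoxb was highest and highest where Hoxb was lowest, at 15.5 ± 0.970 CPM in WT with Repsox, 0.330 ± 0.345 in WT with TGF-beta1, 28.9 ± 4.58 in K36M with Repsox and 6.95 ± 0.549 in K36M with TGF-beta1. Of 4 non-coding genes tested inside the clusters, 2 fell in K36M with Repsox, 3 fell and 1 rose with TGF-beta1, and with TGF-beta1 2 rose in each genotype. Hoxb3os, antisense to Hoxb2 and Hoxb3, was at 1.64 ± 0.787, 5.01 ± 0.0236, 0.461 ± 0.652 and 0.897 ± 0.279 CPM in the same order. Without a stated strand setting its reads cannot be told from those of Hoxb2 and Hoxb3, which share 49.4 and 37.9% of their exon bases with other genes.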

How the data were processed

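RNA was measured in 8 libraries, 2 in each of 4 groups; totals of 10928302 to 15594217 counts limit the precision for low genes. The deposited table holds whole-number read counts per gene for 26930 genes. The authors' counts were made with STAR 2.5.0 and HTSeq 0.11.2 on mm9, per the submitters' processing notes, which also name edgeR. The annotation, strand setting and any trimming are not given in the sources used here.

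Counts as deposited were tested with edgeR 4.0.16 (R 4.3.3) in 1 fit of the 8 libraries: filterByExpr kept 15789 genes, sizes were scaled by TMM, and contrasts were tested by quasi-likelihood F tests with Benjamini-Hochberg adjustment over all genes tested and a threshold of 0.05. The common biological coefficient of variation was 0.07 with 4 residual degrees of freedom. A standard error is the size of the log2 fold change divided by the square root of F. Per-kilobase levels use the exon union of GENCODE vM1; cluster and class sums include all 39 Hox genes. Ratios against a group with 1 to 3 counts carry exact 95% intervals, and against 0 counts use a floor of 3 counts over the group; both cover counting error only. Hox genes are named or counted; results of some single genes are not reported here; from the other lists, up to 4 called genes with the smallest adjusted p in a comparison could be named. Members and lists were chosen with earlier results of these data known.

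Alternatives were DESeq2 1.42.0, DESeq2-type size factors, total counts, 2 other filters, a 2-fold minimum, the libraries of the contrast alone, a replicate block, and each library left out. The fits were tested on simulated data. Replicate numbers were not used as pairs: deviations of same-numbered libraries correlated at -0.028 to 0.055. Replicates differed by more than sampling noise (chi-square per degree of freedom 2.7 to 9.09). The submitters' labels name the groups; no library was left out.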

Additional observations from a re-analysis of the deposited data

Results flagged for a closer look

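The difference between media was not of the same size in the 2 genotypes for 13 of the 33 tested Hox genes, by the interaction test in edgeR (adjusted p below 0.05). Over all genes tested 51% were called in either direction, a larger share. The values are the log2 difference in K36M minus that in WT. It was positive in Hoxb1 (10.4), Hoxd3 (5.51), Hoxc11 (3.64), Hoxa9 (3.17), Hoxd10 (3.07), Hoxa10 (3.06), Hoxb3 (2.84), Hoxc13 (1.87), Hoxd8 (1.27), Hoxc10 (1.16) and Hoxc6 (0.64), and negative in Hoxb8 (-2.28) and Hoxb7 (-1.16). Of these, Hoxb1, Hoxa9, Hoxa10 and Hoxc13 were called on leaving out each library in turn, but of these 4 only Hoxc13 kept a value within 1.5 times of that with all libraries. Without K36M Repsox replicate 1 the value of Hoxa9 was 2.09, of Hoxa10 6.66, of Hoxb1 9.39, of Hoxb3 1.76 and of Hoxc11 5.88. Without K36M Repsox replicate 2 they were 6.83, 2.24, 12.69, 6.5 and 2.92, and that of Hoxc10 was 1.92. Hoxb1 also moved to 11.15 and 8.85 without WT Repsox replicate 1 or 2, Hoxd3 to 4.78 without WT Repsox replicate 1 and Hoxb8 to -3.13 without K36M TGF-beta1 replicate 1. Hoxb1, Hoxd3, Hoxc11, Hoxa9, Hoxd10, Hoxa10 and Hoxb3 held 0 to 3 counts over both libraries of at least 1 group, so their fitted values depend on the prior count. Hoxb1 also passed the filter on low counts through the K36M libraries with TGF-beta1, so its call is not independent of that filter, and leaving out 1 library does not change this.

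Single libraries ended the call of the other nine, beside those given in the report. Hoxd10 lost it without WT Repsox replicate 2 (adjusted p = 0.0765), WT TGF-beta1 replicate 2 (0.0623), either K36M Repsox library (0.0583 and 0.0809) and K36M TGF-beta1 replicate 1 (0.137). Hoxc6 lost it without WT TGF-beta1 replicate 2 (0.0575) and either K36M Repsox library (0.0764 and 0.0643). Hoxb7 lost it without WT Repsox replicate 1 (0.115), either WT TGF-beta1 library (0.0595 and 0.0665), K36M Repsox replicate 1 (0.131) and either K36M TGF-beta1 library (0.0804 and 0.0707). Hoxb8 lost it without WT Repsox replicate 1 (0.0789), WT TGF-beta1 replicate 2 (0.112), either K36M Repsox library (0.0672 and 0.0612) and K36M TGF-beta1 replicate 2 (0.149). Hoxa5, not called with all libraries (adjusted p = 0.056), was called without K36M TGF-beta1 replicate 1 (0.038).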

How the results depend on the processing

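Over 2422 gene-level values recomputed under the alternatives, 2324 kept their side of the threshold, 93 lost their call and 5 gained one. Of the values called with all libraries or under the alternative, 0 changed direction. Values called in neither could change sign, as for Hoxa11 between media in K36M (log2 1.93, and as low as -2.27 with a library left out). Without TMM, the median of all genes was 0.248 for K36M against WT with TGF-beta1, -0.275 for the media in WT and 0.314 for the interaction; Hox medians kept their sign. Counts of 1 or 2 Hox genes moved most. The 2 genes lower with TGF-beta1 in WT were 1 with DESeq2-type size factors, 1 with the libraries of the contrast alone, 1 with the replicate block, 0 with DESeq2 (2 at unadjusted p below 0.05) and 0 to 2 with single libraries left out. The 1 gene lower with TGF-beta1 than with Repsox in K36M was 0 in edgeR with the libraries of the contrast alone, where Hoxb8 did not pass the filter. With libraries left out this count was 0 to 1. The 2 negative interactions were 0 in edgeR without TMM and 0 in DESeq2 (2 at unadjusted p below 0.05 in each), and 0 to 2 with libraries left out; the 11 positive ones were 6 to 11. The cause was not tested. Without a filter on low counts the Hoxd median moved to -0.77 with Repsox and reversed to 0.14 with TGF-beta1 for K36M against WT, because the 4 low Hoxd genes enter it. With libraries left out, medians for K36M against WT with Repsox were -4.54 to -3.93 in Hoxa, -2.73 to -1.85 in Hoxb, -2.86 to -2.44 in Hoxc and -2.25 to -1.28 in Hoxd, and with TGF-beta1 -2.15 to -1.74 in Hoxc. Same-numbered libraries share only a number; with the replicate block the counts were 1 higher and 27 lower, 4 and 25, 21 and 1, and 23 and 1 in the 4 comparisons. Per longest transcript, the Hox sums were 70.0, 257, 15.1 and 52.3 CPM per kb in WT with Repsox, WT with TGF-beta1, K36M with Repsox and K36M with TGF-beta1. Depth limits the 6 untested genes and the K36M groups with Repsox, where 28 genes had under 1 CPM.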

Other observations

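Homeobox genes of mesenchyme outside the Hox clusters were also examined. Of 18 tested, 5 were higher and 11 lower in K36M than in WT with Repsox (28.8 and 26.9% over all genes) and 5 and 10 with TGF-beta1 (36.4 and 33.9%). With TGF-beta1 against Repsox, 2 were higher and 10 lower in WT (29 and 33.4% over all genes) and 5 and 5 in K36M (24.7 and 23.6%). Prrx1, a factor of limb and face mesenchyme, was at 253 ± 32.6 CPM in WT with Repsox, 122 ± 14.8 in WT with TGF-beta1, 9.06 ± 2.66 in K36M with Repsox and 5.00 ± 0.220 in K36M with TGF-beta1 (mean ± SD, n = 2). It was lower in K36M in both media (log2 -4.82 ± 0.14, adjusted p = 2.51e-17 with Repsox and log2 -4.61 ± 0.16, adjusted p = 8.39e-17 with TGF-beta1) and, unlike most Hox genes, lower with TGF-beta1 in WT (log2 -1.05 ± 0.11, adjusted p = 2.46e-08). Emx2 had the order of groups of the Hox sum, at 4.02 ± 0.130, 17.9 ± 0.191, 0.187 ± 0.0775 and 0.618 ± 0.00954 CPM. Dlx3, of placenta and skin, was lowest where the Hox sum was highest, at 19.5 ± 1.36, 0.115 ± 0.0407, 57.1 ± 1.87 and 12.0 ± 0.451 CPM.

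Genes upstream of Hox expression, those of retinoic acid handling and reception and the CDX factors among them, were called mostly lower in K36M with Repsox and more often higher than lower with TGF-beta1. Of 18 tested, 2 were higher and 12 lower in K36M with Repsox and 9 and 4 with TGF-beta1, beside the same shares over all genes as above. With TGF-beta1 against Repsox 6 were higher and 11 lower in WT and 8 and 3 in K36M. The 2 cellular retinoic acid binding proteins stood apart: Crabp1 was at 205 ± 17.6 CPM in WT with Repsox, 1.94 ± 0.915 in WT with TGF-beta1, 16.9 ± 1.97 in K36M with Repsox and 16.1 ± 0.303 in K36M with TGF-beta1, and Crabp2 at 8.13 ± 0.150, 117 ± 5.46, 4.74 ± 0.560 and 19.7 ± 3.17 CPM in the same order. Cyp26b1, which degrades retinoic acid, was at 38.7 ± 1.47, 2.03 ± 0.537, 4.84 ± 0.700 and 2.76 ± 0.0738 CPM. The groups with the highest Cdx1, a factor that switches on trunk Hox genes, were those of K36M: it was at 0.651 ± 0.254, 0.165 ± 0.132, 4.20 ± 1.00 and 13.4 ± 1.16 CPM. T, the brachyury factor of early mesoderm, was highest in K36M with TGF-beta1, the group where Hoxb1, Hoxb13 and Hoxc13 were highest, at 1.26 ± 0.503, 0.194 ± 0.0306, 0.0731 ± 0.0103 and 5.33 ± 0.746 CPM.

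Markers of other cell types differed between groups as well, and their part in the Hox values was not tested. In WT with Repsox, WT with TGF-beta1, K36M with Repsox and K36M with TGF-beta1, the summed level of neural markers was 165 to 184, 1140 to 1280, 110 to 113 and 241 to 262 CPM. That of trophoblast markers was 188 to 201, 6.71 to 6.96, 408 to 434 and 125 to 133 CPM, and that of muscle markers 5.36 to 9.03, 0.947 to 1, 16.6 to 18 and 43.3 to 49.6 CPM, with Myf5 and Myod1 at 0 counts in the 3 groups other than WT with Repsox.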
